A study of Caenorhabditis elegans with 2 samples.

Results

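The peaks described here are the weaker peaks of the tagged T20F7.1 protein at autosomal promoters where the genes lie on 1 strand only. They were chosen by the signal value in the authors' deposited list of 2586 reproducible peaks and by position. A peak was kept when it lay on an autosome, when its summit fell from 500 bp upstream to 100 bp downstream of the start of a protein-coding gene, when no gene of the opposite strand had the summit in its own window, and when its signal value was under 200. This rule kept 471 of the 2586 peaks. The same position rule without the threshold gave 768 peaks, so 297 one-sided autosomal peaks had a signal value of 200 or more. Another 273 autosomal peaks had genes of both strands in reach and are called divergent below, whatever their signal value (108 of them were under 200), and 88 peaks of the X chromosome met the rule in all but the chromosome.

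Chromatin was immunoprecipitated with an anti-GFP antibody and sequenced from whole Caenorhabditis elegans L4 larvae of the strain OP754, both sexes pooled, aged 48 hours and grown from larvae that had hatched after bleaching and been starved as L1. The animals carry the integrated transgene wgIs754, which holds T20F7.1 with TY1, EGFP and 3xFLAG tags together with unc-119(+), in the unc-119(tm4063) background, so both the mutation and the rescuing copy are common to all samples. There was 1 group with 2 biological replicates and no treatment. The lists derive from the replicates' alignments and a control alignment, but neither an input nor an immunoprecipitate of untagged animals was analysed here. With 1 group there is no contrast between conditions, and peaks are not replicates of one another, so shares, medians and spreads are given without p-values.

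The annotation gives T20F7.1 a domain of the C2H2 type, a small fold built around a zinc ion that many DNA-binding proteins share. In nematodes the first bases of many messages are replaced by a spliced leader, so an annotated gene start often lies downstream of the place where transcription begins, and genes of 1 strand can follow each other closely or share a promoter as an operon. GATA factors are zinc finger proteins of another family that bind words with GATA at their core. In the worm intestine the GATA factor ELT-2 is a main regulator of digestive, metabolic and stress genes, and its known sites contain TGATAA.

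Sequence words at the summit varied with the signal value across these promoters, so windows of 101 bases centred on the summit are shown first, on the plus strand of ce11. The first 6 hold a GATA word, defined as GATAAG or TGATAA on either strand, which is printed in capitals; these words overlap in TGATAAG. They are the strongest such peaks outside UTRs, upstream of rpac-19 (chrIII:9629986-9630086, a subunit shared by RNA polymerases), K09D9.1 (chrV:4024883-4024983) and dlst-1 (chrV:6709432-6709532, a subunit of the oxoglutarate dehydrogenase complex). In the lists of digestive or lipid genes, the strongest peaks with a GATA word, at dhs-21 (153) and cpr-4 (139), are not shown. Both also hold a CG-containing word of the kind counted below. The other 3 windows come from weaker peaks of these lists without such a word, and the replicates of cpr-1 and acs-7 were over 2-fold apart. They are cpr-1 (chrV:11975347-11975447, a gut cysteine protease), acs-7 (chrII:9291791-9291891, an acyl-CoA synthetase) and nhr-80 (chrIII:14899-14999, a nuclear receptor that acts on fatty acid desaturation). Their sequences are
rpac-19: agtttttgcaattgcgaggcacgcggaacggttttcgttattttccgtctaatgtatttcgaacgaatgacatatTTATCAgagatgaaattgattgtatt
K09D9.1: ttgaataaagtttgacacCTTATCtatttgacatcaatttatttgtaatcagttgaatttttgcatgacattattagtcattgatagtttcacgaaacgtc
dlst-1: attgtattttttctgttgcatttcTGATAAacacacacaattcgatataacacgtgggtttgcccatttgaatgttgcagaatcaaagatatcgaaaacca
cpr-1: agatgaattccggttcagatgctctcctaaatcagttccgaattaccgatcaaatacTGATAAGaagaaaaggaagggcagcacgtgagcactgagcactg
acs-7: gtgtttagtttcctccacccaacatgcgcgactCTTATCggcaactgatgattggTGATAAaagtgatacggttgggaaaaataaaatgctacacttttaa
nhr-80: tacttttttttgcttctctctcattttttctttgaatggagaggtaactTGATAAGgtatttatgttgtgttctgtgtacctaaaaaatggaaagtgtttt

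The next 4 windows show the CG-containing words that were more frequent at one-sided peaks of 200 or more. In capitals are CTGCGTC, or its complement GACGCAG, at efl-1 (chrV:16965805-16965905, an E2F transcription factor) and phb-2 (chrII:6250908-6251008, a mitochondrial prohibitin), and ACGCGC, or its complement GCGCGT, at F10E7.5 (chrII:7111783-7111883, a ribosome assembly factor) and sel-10 (chrV:13819140-13819240, an F-box protein). Below them stand 2 windows with neither kind of word and no capitals, at gei-4 (chrIII:354903-355003, a bZIP-domain protein) and kvs-3 (chrV:9318161-9318261, a BTB-domain protein), the latter with its summit inside a tRNA gene. Their sequences are
efl-1: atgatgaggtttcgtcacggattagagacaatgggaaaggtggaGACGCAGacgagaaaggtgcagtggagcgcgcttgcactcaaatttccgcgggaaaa
phb-2: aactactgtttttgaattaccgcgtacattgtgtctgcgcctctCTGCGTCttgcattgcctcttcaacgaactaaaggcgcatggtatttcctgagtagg
F10E7.5: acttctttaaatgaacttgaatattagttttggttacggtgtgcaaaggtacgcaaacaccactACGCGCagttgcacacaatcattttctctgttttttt
sel-10: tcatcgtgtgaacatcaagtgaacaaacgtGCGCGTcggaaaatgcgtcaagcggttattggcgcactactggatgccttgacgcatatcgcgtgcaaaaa
gei-4: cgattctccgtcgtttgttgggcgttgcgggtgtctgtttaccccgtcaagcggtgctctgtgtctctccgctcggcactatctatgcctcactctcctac
kvs-3: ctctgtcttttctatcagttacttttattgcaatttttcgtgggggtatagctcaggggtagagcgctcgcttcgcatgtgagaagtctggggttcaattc

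The signal values, which the rule used, ran from 95.8 to 199.96 with a median of 124. Strong one-sided peaks had a median of 377 and divergent peaks one of 258. The authors' −log10 q-value was at least 2 at 119 of the 471 weak peaks (25.3%), at all 297 strong peaks and at 75.1% of divergent peaks. The q-value did not fall steadily with the signal value, since the highest −log10 q among weak peaks, 2.84, belonged to peaks near a signal of 164 such as those of vha-2 and eif-2Bgamma. Read depth is not given in the sources used here, and all intervals below are 95% Wilson intervals that cover the sampling of peaks only.

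The threshold cuts through a continuous range. Just under it lay K09D9.1 (198.77), lsm-6 (199.06, a U6 snRNA-associated protein), taf-4 (199.34, a TFIID subunit), rpac-19 (199.61) and rpl-25.2 (199.96, a large ribosomal subunit protein). Just over it lay tbc-20 (200.20), hlh-11 (200.36), alh-8 (200.66), scyl-1 (200.67) and F59B1.8 (201.08). All 10 peaks had a −log10 q between 2.71 and 2.72, so the authors' q-value was level across the threshold. The lowest 5 peaks were those of lpin-1 (95.8, a lipin), riok-1, gpdh-3, C18H9.6 and F44E7.4 (95.9 each), with −log10 q from 0.580 to 0.582.

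The replicate lists hold 30000 candidate regions each, and a member was matched to a candidate whose summit lay within 100 bp. Replicate 1 gave a partner to 458 members and replicate 2 to 449, both replicates did so for 437 (92.8%, 90.1 to 94.8), and 1 member, at the homeobox gene ceh-5, had a partner in neither. Among the 2586 strongest regions of each replicate the picture was less complete. There 242 members (51.4%) had a partner in both replicates, 202 (42.9%) in exactly 1 and 27 in neither, whereas 98.7% of strong one-sided peaks had a partner in both. The pooled signal is close to the sum of the replicates' signals (median ratio of the sum to the pooled value 0.996 over 437 members), so these values describe the choice of members and do not test it.

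The signal in replicate 1 had a median of 62.6 (18.6 to 109) over the 457 members with a candidate of their own and that in replicate 2 a median of 64.2 (27.2 to 130) over its 449. The remaining partner in replicate 1, that of dlst-1 with 176, was also the partner of a strong peak 200 bp away at the same gene, so it is not a value of the weak peak alone. On the log2 scale replicate 2 exceeded replicate 1 by a median of 0.06, the middle part of the members lay between -0.29 and 0.35 (quartiles), and the SD was 0.55, against 0.24 for strong one-sided peaks. In 30 members the replicates were more than 2-fold apart, 20 of them higher in replicate 2 and 10 higher in replicate 1, against 1 strong peak. Across peaks, the ratio of the replicates thus spread more widely at weak promoters than at strong ones.

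**Figure D1:**
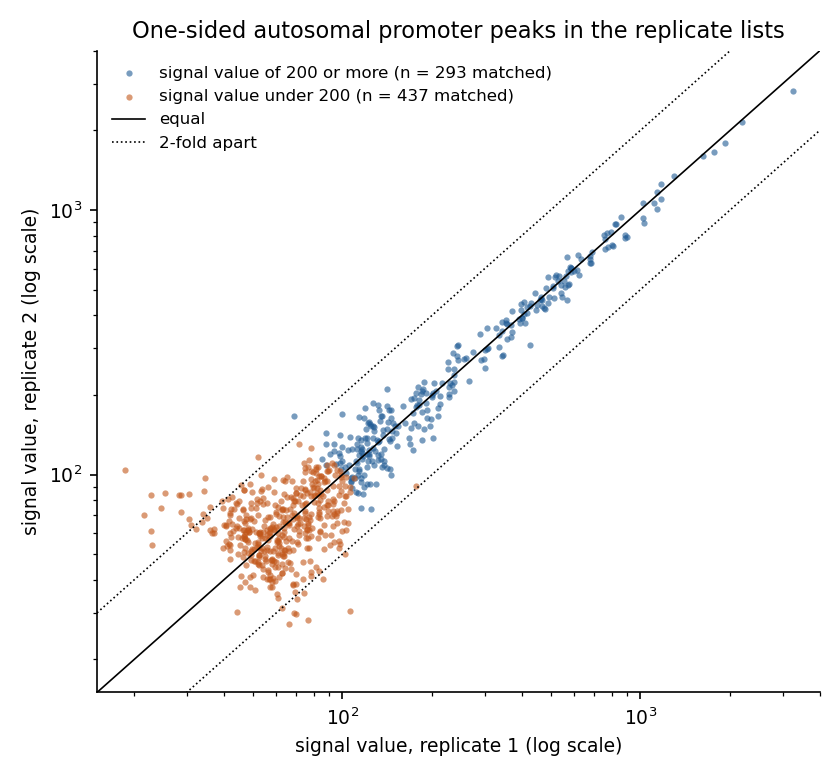
Signal value in replicate 2 (y) against replicate 1 (x), both on log axes, for one-sided autosomal promoter peaks matched in both replicates; each point is a peak, orange with a pooled signal value under 200 and blue with 200 or more. Orange points spread widely around the line of equality, 30 of them beyond the dotted 2-fold lines, while 1 blue point lies beyond them.

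The 5 members with the highest signal in the weaker of their replicates were nearly level in both. K09D9.1 had 98.8 and 100 in replicates 1 and 2. F21C10.10, which is annotated with the NAD-binding domain of hydroxyacyl-CoA dehydrogenases, had 98.7 and 98.1, and taf-4 had 98.1 and 103. The peak of wrt-3, a hedgehog-related Warthog gene, had 103 and 97.9, and that of rpl-25.2 had 109 and 97.4.

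At the other extreme stood members with most of their signal in 1 replicate. F53H1.4, a PHD-domain protein gene, had 18.6 in replicate 1 and 104 in replicate 2 (log2 ratio 2.49), cpr-1 had 22.8 and 83.6 (1.88), and inf-1, an initiation factor 4A gene, had 25.3 and 85.0 (1.75). In the reverse direction eif-2Bgamma, a subunit of the exchange factor of translation initiation, had 106 and 30.4 (-1.81). The ubiquitin ligase adaptor gene skr-1 had 76.9 and 28.1 (-1.45), and the ferritin gene F09F7.6 had 66.0 and 27.2 (-1.28). Such members rank far apart in the replicates: cpr-1 stood at rank 1124 in replicate 2 and at 19681 in replicate 1. Of the 30 members more than 2-fold apart, 5 had another reproducible peak within 250 bp, against 24 of all 471 (5.10%), and the part of such neighbours in the ratios was not tested.

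The members' summits lay upstream of the gene start in 419 cases (89%), at a median of -186 bp with quartiles of -311 and -74 bp. Strong one-sided peaks had a median of -202 bp with quartiles of -296 and -112 bp. A summit at or downstream of the start was found at 52 weak peaks (11%, 8.52 to 14.2) and at 10 strong ones (3.37%, 1.84 to 6.09). The window of the rule bounds these distances.

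**Figure D2:**
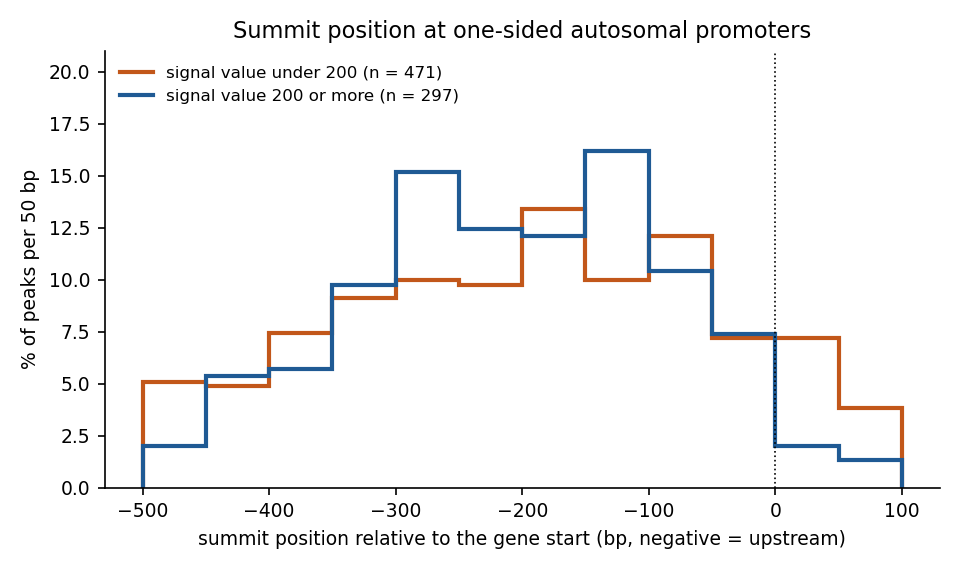
Share of peaks (y, in percent per 50 bp) by summit position relative to the gene start (x, in bp, negative upstream) for one-sided autosomal promoter peaks with a signal value under 200 (orange, n = 471) and of 200 or more (blue, n = 297). The orange line is higher downstream of the start, where 11% of weak and 3.37% of strong peaks lie, and in the 50 bp farthest upstream.

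Placed on the gene models, 365 weak summits (77.5%) fell between genes, 30 (6.37%) in a 3′ UTR, 29 in a 5′ UTR, 25 in an intron and 22 in a coding exon. Between genes lay 88.9% of strong summits, and 1.35% of them were in a 3′ UTR. Of the 475 genes of the weak peaks, 302 (63.6%) had their nearest upstream gene on the same strand, and 153 (32.2%) had it there within 500 bp. For strong one-sided peaks, chosen by the same rule on strands, the shares were 57.6% and 31.3%. The rule leaves out summits with a gene of the opposite strand in reach, so these shares are partly set by it and are not read against all genes. A summit between 2 such genes lies behind the end of the first as well as in front of the second, and the data do not assign it to either.

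In all, 475 of 17242 autosomal protein-coding genes had a weak one-sided summit in the window, 2.75% of them. For strong one-sided peaks the share was 1.72%, and for divergent peaks, which reach genes on both strands, it was 3.17%. Of the 471 peaks 466 lay in the window of 1 gene and 5 in those of 2 genes of the same strand, and 1 gene, dpf-3 (a dipeptidyl peptidase family gene), had 2 member summits, at -173 and 38 bp. The share of genes was 3.23% on chromosome I, 2.84% on II, 3.26% on III, 2.71% on IV and 2.18% on V. Of the 475 genes 395 (83.2%) lay in the central part of their chromosome, from 25 to 75% of its length, where 55.7% of all autosomal genes, 71.7% of the genes of strong one-sided peaks and 77.8% of those of divergent peaks lie. A strong one-sided or divergent peak was also present at 14 of the 475 (2.95%), against 4.88% of all autosomal genes, and the rule on strands works against an overlap with divergent peaks.

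Genes were grouped by name into 35 lists, which hold 162 of the 475 genes and 5587 of the 17242. A list made by name can take in genes of another function, such as ile-1 in that of digestion and dhs-21 in that of lipids. Products named here are those of the RefSeq annotation of WBcel235. A list's share has to be read against the 2.75% of all autosomal genes for weak peaks and against 4.88% for strong one-sided or divergent peaks. Divergent peaks count there at any signal value, so the second class is not one of signal strength alone. The weak share was above that of all autosomal genes in 24 of the 35 lists.

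Genes of the digestive tract and of metabolism are given first. In these lists, genes with a weak peak were at least as many as those with a strong one-sided or divergent one. Of 84 genes of digestion and intestine 6 (7.14%) had a weak peak and 0 a strong or divergent one. The strongest were ile-1 (signal value 140, replicates 54.1 and 81.4), a cargo lectin of the early secretory pathway, and cpr-4 (139, replicates 70.6 and 68.7), a cathepsin B-like protease, and the others were lys-8, a lysozyme gene, cpr-1, mtl-1, a metallothionein gene, and cpl-1, a cathepsin L gene. Detoxification had 12 of 223 genes (5.38%) with a weak peak, 0 with a strong one-sided one and 1 with a divergent one. Its leading members were the superoxide dismutase genes sod-1 (180, replicates 101 and 77.8) and sod-2 (171, replicates 82.2 and 84.8). The other 10 were the UDP-glucuronosyltransferase genes ugt-62 (147), ugt-4, ugt-20 and ugt-26, the glutathione S-transferase genes gst-1 (134), gst-8 and gst-9, the cytochrome P450 genes cyp-33E3 and cyp-13A2, and cdr-6, annotated as cadmium-responsive. A GATA word lay within 50 bp of the summit at 2 of the 6 digestive genes and at 1 of the 12 detoxification genes, against 21.9% of all members.

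Lipid metabolism had 10 of 143 genes (6.99%) with a weak peak and 7 with a strong one-sided or divergent one. They include dhs-21 (153, replicates 67.2 and 82.5) and dhs-6 (150, replicates 74.6 and 71.5), annotated as an L-xylulose reductase and a hydroxysteroid dehydrogenase-like protein, the lipase gene lipl-2, the fatty acid-binding protein gene lbp-5 and the nuclear receptor genes nhr-49 and nhr-80, which regulate fat metabolism. A GATA word lay at 5 of these 10. Over the digestion, detoxification and lipid lists together, 8 of 28 genes had one, and 103 of all 471 members (21.9%) did. Nuclear hormone receptors as a family had 8 of 247 (3.24%), led by nhr-256 (159) and nhr-8 (144), close to the share of all genes.

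Central carbon metabolism had 7 of 44 genes (15.9%) with a weak peak and 7 with a strong one-sided or divergent one. The 2 highest were dlst-1 (189, with 90.2 in replicate 2 and no value of its own in replicate 1) and pyc-1 (182, replicates 102 and 90.8), which encodes pyruvate carboxylase. The others were gpi-1, pyk-2, idh-1, tkt-1 and fum-1, enzymes of glycolysis, the pentose phosphate pathway and the citric acid cycle. A GATA word was found at 4 of the 7, namely dlst-1, pyc-1, pyk-2 and tkt-1, against 21.9% of all members.

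The lists of the vacuolar ATPase, autophagy, ubiquitin conjugation and vesicle trafficking also had weak shares above the 2.75% of all autosomal genes. The trafficking list includes coatomer genes such as copg-1 and copd-1. The vacuolar ATPase, the proton pump that acidifies organelles, had 4 of 17 genes (23.5%), vha-2 (164, replicates 78.6 and 71.1), vha-10 (158, replicates 71.8 and 83.8), vha-14 and vha-9. Autophagy had 5 of 26 (19.2%), among them epg-4 (167, replicates 89.5 and 72.8) and atg-16.2 (124, replicates 85.7 and 40.4). Ubiquitin conjugation had 8 of 84 (9.52%), led by the conjugating enzyme genes ubc-7 (179) and ubc-25 (176), and vesicle trafficking 10 of 115 (8.70%), led by vps-28 (196, a subunit of the endosomal sorting machinery) and vps-35 (174, a retromer subunit). Strong one-sided peaks lay at 0 vacuolar ATPase, 2 autophagy, 8 ubiquitin and 4 trafficking genes. Divergent peaks, counted at any signal value, lay at 3, 0, 5 and 11 genes of these lists. The first pair of lists is small, so a single gene moves their shares by several percent.

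The lists of nuclear and mitochondrial genes varied. Nuclear pore and RNA export genes had 6 of 45 (13.3%), led by npp-19 (173) and hel-1 (172), and mitochondrial import genes 6 of 44 (13.6%), led by phb-2 (188) and fzo-1 (177, a mitochondrial fusion GTPase). In each of the lists 8 genes had a strong one-sided or divergent peak. The mitochondrial ribosome had 3 of 70 (4.29%). Chromatin genes had 9 of 190 (4.74%), with the deacetylase gene sir-2.1 (180) and set-10 (173) highest. Among other transcription factors, 8 of 147 (5.44%) had one, and efl-1 (188) and nfyc-1 (170, a subunit of the CCAAT-binding factor) led them.

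In the lists of protein synthesis, splicing and respiration, genes with a strong one-sided peak or a divergent peak of any signal value outnumbered those with a weak one. The weak shares were above 2.75% in all of those named here except the respiratory chain, as they were in 24 of all 35 lists. They rest on few genes, and that of the cytosolic ribosome lies near the share of all genes. Cytosolic ribosomal protein genes had 3 of 79 (3.8%) with a weak one-sided peak, rpl-25.2, rps-8 (186) and rpl-29 (165), and 42 (53.2%) with a strong or divergent one. The respiratory chain had 1 of 61 (1.64%), nuo-2 (105), and 19 with a strong one-sided or divergent peak, and splicing had 3 of 53 (5.66%) and 16. Translation factors had 5 of 70 (7.14%), led by eif-2A (165), and 15 with a strong one-sided or divergent peak, and the proteasome had 3 of 33 (9.09%), led by rpn-13 (159), and 10. Divergent peaks made up the larger part in each list. Strong one-sided and divergent counts were 15 and 27 for the cytosolic ribosome and 4 and 15 for the respiratory chain. For splicing they were 6 and 10, for translation 7 and 8 and for the proteasome 1 and 9. Strong one-sided genes alone were fewer than weak ones in the proteasome list only, 1 against 3.

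Lists of specialised tissues held few peaks of either kind. Synapse and neuron genes had 5 of 289 (1.73%), led by kvs-3 (197.00) and the kinesin heavy chain gene unc-116 (131), and 1 with a strong one-sided or divergent peak. Hypodermis and cuticle assembly genes had 3 of 186, among them wrt-3 and the convertase gene bli-4 (158). C-type lectins and immunity genes had 2 of 393, and F-box genes 4 of 434. Cuticle collagens had 0 of 149 genes and neuropeptides and insulins 0 of 107, for which a count of 0 allows shares of up to 2.01% and 2.80% (3 counts), so the latter could not be told from the 2.75% of all genes at this number.

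**Figure D3:**
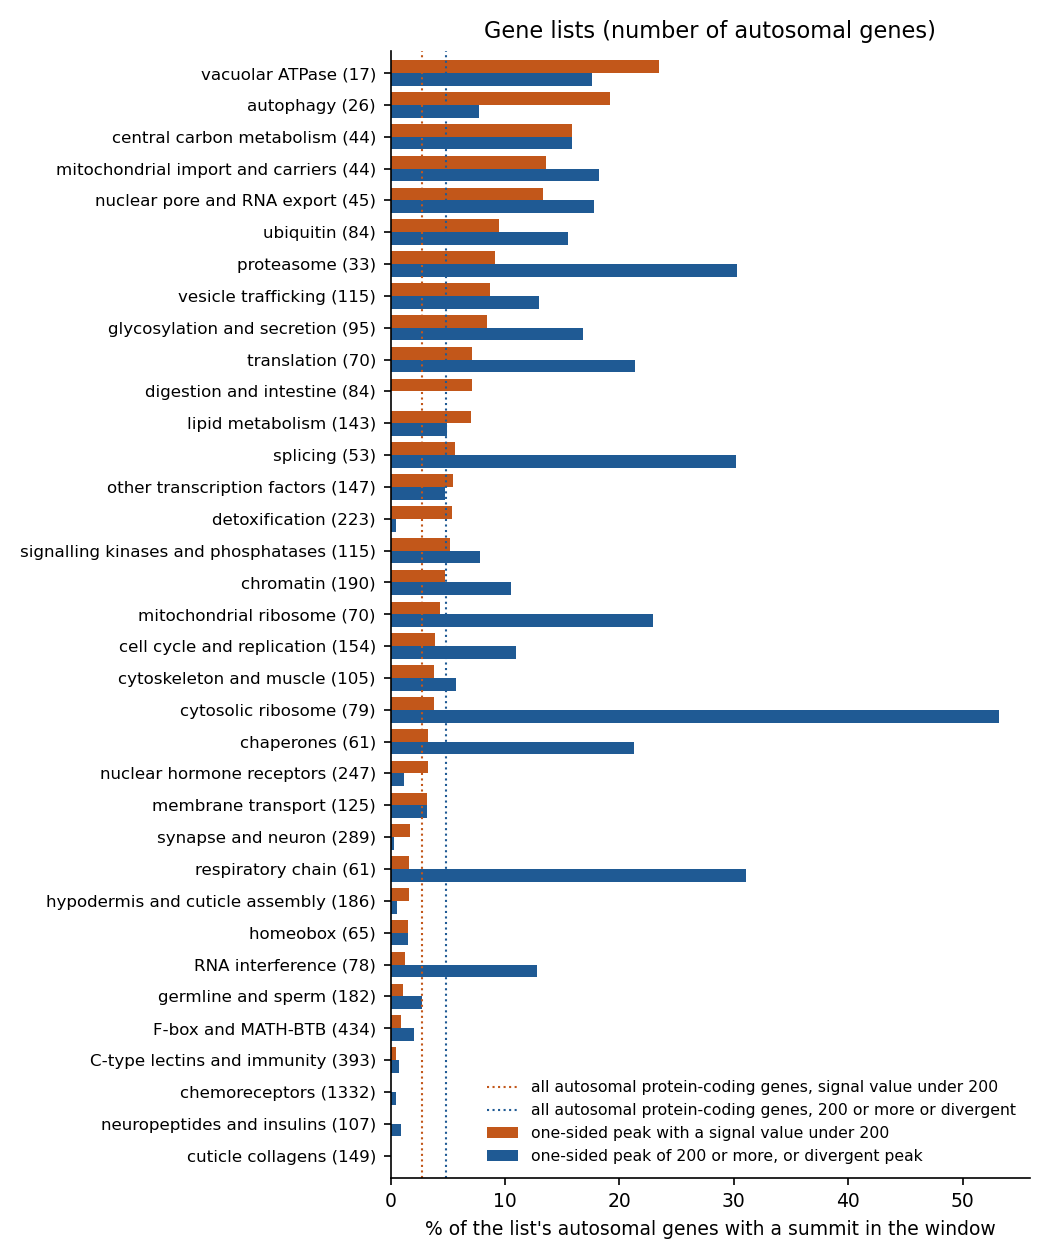
Share of each list's autosomal genes (x, in percent) with a one-sided summit of signal value under 200 (orange bars) or with a strong one-sided or divergent summit (blue bars), with the number of genes in parentheses; dotted lines mark the shares of all autosomal protein-coding genes, 2.75% and 4.88%. Orange bars exceed blue ones for vacuolar ATPase, autophagy, digestion and detoxification genes, and blue bars exceed orange ones most for cytosolic ribosome genes. Blue bars take in divergent summits of any signal value.

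The words shown in capitals were counted within 50 bp of every summit, on both strands, and in windows of the same length 300 to 400 bp away on both sides. Of all 6-letter words, TGATAA had the largest difference from the flanks in percentage points, though not in ratio, with 85 of 471 (18%, 14.8 to 21.8) against 7.22% of flanking windows. GATAAG was at 54 (11.5%) against 3.82%, and ATAAGA, which overlaps it, at 67 (14.2%) against 6.37%. Either GATA word was present at 103 weak summits (21.9%, 18.4 to 25.8) and in 9.34% of their flanks. For windows of that length centred 186 bp upstream of the start, it was present at 13.2% of all 17242 autosomal promoters and at 12.6% of the 12777 with no candidate region.

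At strong one-sided and at divergent peaks these words were no more frequent than in the flanks. Either GATA word was at 9.76% (6.88 to 13.7) of strong one-sided summits, whose flanks had 11.1%, and at 6.96% (4.50 to 10.6) of divergent summits, whose flanks had 9.52%. The 7-letter TGATAAG, which joins both words, was at 31 weak summits (6.58%, 4.68 to 9.19), at 10 strong ones (3.37%), at 2 divergent ones and at 2.74% of all autosomal promoters. On the X chromosome the weak one-sided peaks had a GATA word at 30 of 88 (34.1%, 25 to 44.5), against 15.9% of their flanks.

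The CG-containing words ran the other way. At least 1 of 5 words, which overlap each other in part, was counted: the word ACGCAG, then the word GACGCA, then the word CGTCTC, then the word ACGCGC and last the word AGCGCG. One of them was present at 114 weak summits (24.2%, 20.6 to 28.3), against 7.86% of their flanks and 9.89% of autosomal promoters with no candidate region. Strong one-sided summits had one at 53.5% (47.9 to 59.1) and divergent summits at 43.2%. The words ACACTC or ACACGC were at 8.28% (6.12 to 11.1) of weak summits, at 37.0% of strong and 31.5% of divergent ones, and at 5.57% of all autosomal promoters. Weak summits thus held the CG words more often than their own flanks, but less often than strong one-sided and divergent summits did. Both a GATA and a CG word were found at 13 weak summits, and 247 (52.4%) had none of the GATA, CG or AC words, against 26.9% of strong ones.

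Across one-sided promoters the GATA share decreased with the signal value and the CG share increased. Among the 446 one-sided autosomal promoter candidates at ranks 2587 to 5172, just below the list, 26.0% had a GATA word and 9.42% a CG word. From there on the GATA share was 28.3% at members up to 110, 21.7% from 110 to 130 and 17.5% from 130 to 200, and then 11.5%, 8.62% and 7.32% in the classes from 200 to 400, 400 to 800 and above. The CG share over the same classes was 15.9%, 23 of 115 peaks, 32.2%, 46.5%, 65.5% and 58.5%. Each replicate by itself gave the same order of extremes: by rank in its own list, replicate 1 had GATA words at 6.10% of its 82 strongest one-sided autosomal peaks and at 22.8% of the 145 ranked 1979 to 2586, and replicate 2 at 6.17% of 81 and 22.7% of 141. The classes were formed after the data had been seen.

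**Figure D4:**
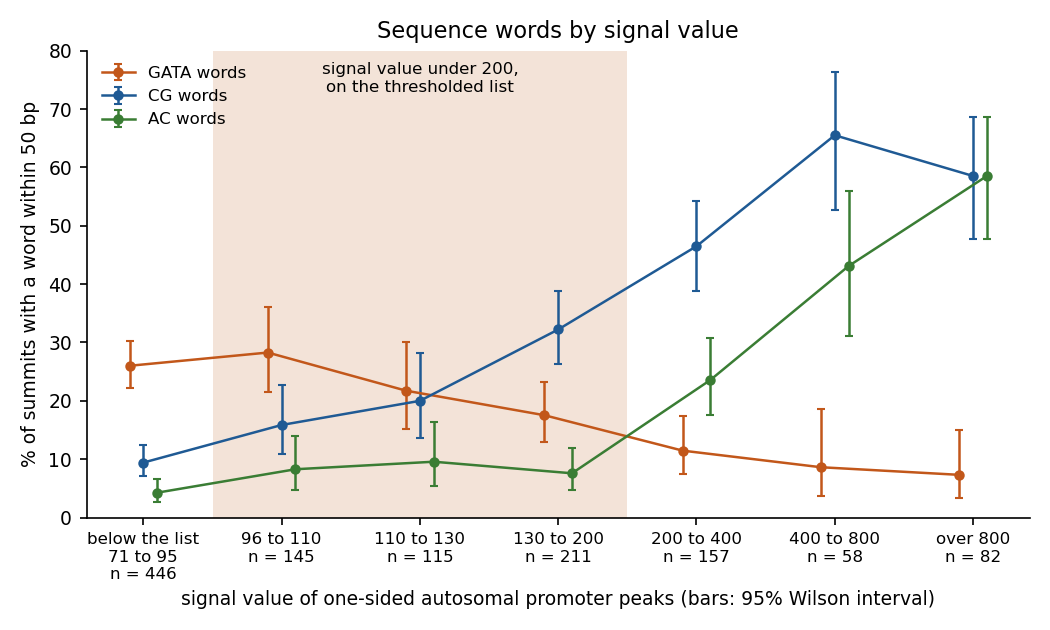
Share of summits with a word within 50 bp (y, in percent) by signal value class of one-sided autosomal promoter peaks (x), with bars for the 95% Wilson interval; orange marks GATA words, blue CG words and green AC words, and shading marks the listed classes under 200. The orange points go down from 28.3% to 7.32% over the classes on the list, and the blue points go up from 15.9% to 65.5% before ending at 58.5%.

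The words also differed in how tightly they sat at the summit. In bins of 20 bp the GATA words were present at a mean of 5.03% of weak peaks per bin within 100 bp of the summit, at 3.5% from 100 to 200 bp and at 2.95% from 200 to 300 bp, a broad rise over the flanks. The CG words had means of 4.80%, 2.40% and 2.04% at weak peaks. At strong peaks the CG words had 8.86% within 100 bp, then 2.39% and 2.22%, while the GATA words had 2.26% within 100 bp, less than the 3.23% from 100 to 200 bp.

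**Figure D5:**
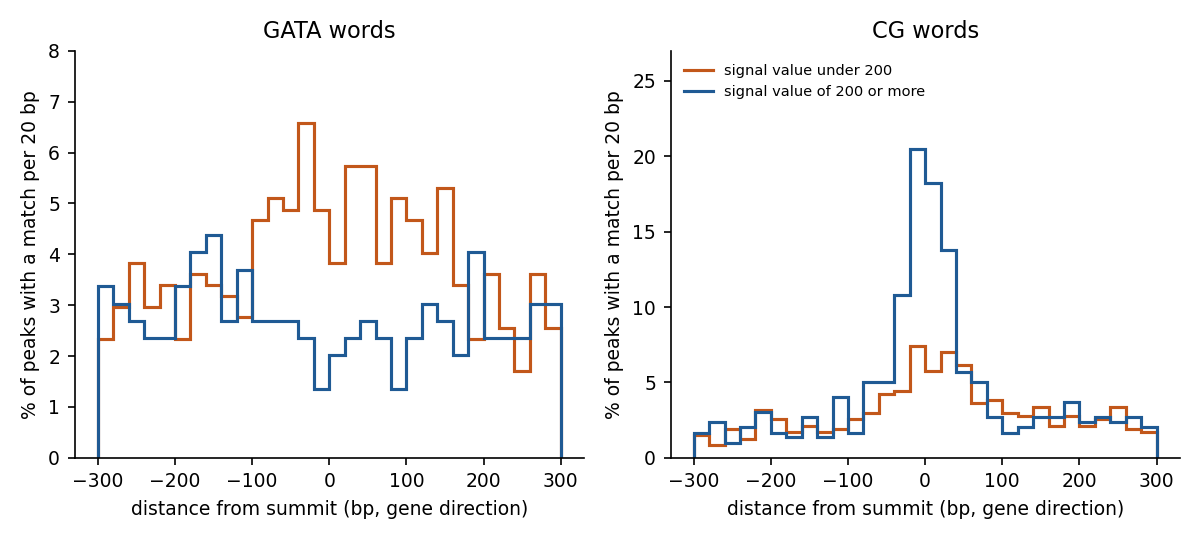
Share of peaks with a word centred in each 20 bp bin (y, in percent) by distance from the summit in gene direction (x, in bp), for GATA words (left) and CG words (right; the y axes differ), at one-sided autosomal promoter peaks with a signal value under 200 (orange) or of 200 or more (blue). GATA words rise broadly at the orange summits and not at the blue ones. CG words form a narrow top at the blue summits and a lower, broader rise at the orange ones.

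Members with a GATA word had a median signal value of 117 and those with a CG word one of 140, and a −log10 q of at least 2 was reached by 14.6% of the former and 41.2% of the latter. Among the 242 members in the top list of both replicates, 17.4% had a GATA word and 32.2% a CG word. Among the other 229, the shares were 26.6% and 15.7%. By place, a GATA word was at 22.9% of summits within 200 bp upstream of the start, at 20.2% of those farther upstream and at 25% of the 52 at or downstream of it, where 9.62% had a CG word. By chromosome, the GATA share went from 16% (9.92 to 24.7) on I to 25.7% (18.3 to 34.8) on V, with wide and overlapping intervals.

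Base composition moved with the words. The median GC content within 50 bp was 35.6% at weak summits and 35.1% in their flanks, 44.6% at strong one-sided summits and 36.6% in theirs, and 33.7% at all autosomal promoters. Weak summits with a GATA word had a median of 33.7% and those with a CG word 40.6%. The part of base composition in the word shares was not tested. TATAAA, an AT-rich word like the GATA words and the core of the TATA box, was at 14.9% of weak summits and 12.2% of their flanks, at 5.72% of strong summits and at 13.2% of all autosomal promoters. ATAAAA was at 30.8% and 21.8% of flanks. TTTCAG, the 3′ splice site word of the worm, was at 12.1% of weak summits and 22.3% of flanks.

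Several other words searched also stood above their flanks. CACACA was at 9.34% of weak summits against 2.65% of flanks, AGAGAC at 52 (8.52 to 14.2) against 4.03%, and GAGAGA at 12.7% against 6.05%. By ratio to the flanks, the CG word ACGCGC, at 8.49% against 1.06%, exceeded TGATAA. The E-box word CACGTG was at 23 weak summits (4.88%, 3.28 to 7.22) against 1.70% of flanks, 2.69% of strong summits and 1.59% of all autosomal promoters. CTGCGTC, which contains a CG word, was at 26 (5.52%) against 0.425% of flanks, 8.75% of strong summits and 1.70% of promoters. CCAAT, the word of the CCAAT-binding factor, was at 14.6% against 18.7% of flanks, TGACTCA, the AP-1 word, at 0.849% in both, and GTAAAC, a forkhead word, at 5.52% against 3.82%.

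Small RNA genes lay near few of the members. Within 250 bp of the summit there was a tRNA, snoRNA, snRNA or miRNA gene at 12 of 471 weak peaks (2.55%, 1.46 to 4.40), against 4.04% of strong one-sided peaks and 12.5% (7.13 to 21) of the 88 weak peaks on X, 10 of which were at tRNA genes. Of the 5 autosomal peaks at tRNA genes, kvs-3 (197.00, replicates 77.3 and 113) and F08G5.3 (129, replicates 77.1 and 52.8) had the summit inside the tRNA gene. K02C4.2 (186, replicates 76.6 and 107) had it inside a snoRNA gene, and wrt-3 lay 85 bp from one. The 1 peak near a miRNA gene, at sph-1, lay 148 bp from cel-mir-4920, and the 1 near a snRNA gene, at W06D4.3, lay 66 bp from sls-2.7. At such loci the data cannot assign the summit to the protein-coding or the RNA gene.

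Another reproducible peak lay within 1000 bp of 61 weak summits (13.0%, 10.2 to 16.3), of 14.8% of strong one-sided and of 6.96% of divergent ones.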

How the data were processed

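The authors deposited 4 peak lists: 30000 candidate regions for each of 2 biological replicates and for the pooled reads, and a list of 2586 reproducible peaks (IDR, irreproducible discovery rate). Each deposited region carries a signal value and a −log10 q-value, both the authors' own. Neither the peak caller and aligner nor the signal's scale is given in the sources used here, and read depth is unknown. All 92586 regions lie inside the chromosome lengths of WBcel235, which is the ce11 build that the deposited lists are named for. Protein-coding starts came from Ensembl release 115 and product names from RefSeq.

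Summits were matched to gene starts, to replicate summits within 100 bp, to gene models and to words within 50 bp, with Python 3.11.15, numpy 2.4.6, pandas 2.3.3, scipy 1.17.1 and matplotlib 3.10.9. Counting steps were tested on simulated data. Peaks, gene lists and words were chosen with earlier results of these data known, and list patterns were tightened after their matches had been seen. Named genes are the members nearest the threshold, the highest and lowest, the most unequal between replicates, the strongest of each list and those near small RNA genes. Other members of a list were named after their values had been seen.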

Additional observations from a re-analysis of the deposited data

How the results depend on the processing

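Of 63 alternative settings, 39 were called kept and 24 moved. For shares and medians, kept means that the value stayed inside the 95% interval of the main one. For counts the bounds were wide: from 323 to 619 peaks, against 471, were still called kept. Only the median log2 ratio of the replicates has a sign that could turn, and it turned in 0 settings. Asking for a −log10 q of at least 2 left 119 peaks and 121 genes. With summits matched within 50 or 200 bp, 69.4% or 98.7% of members had a partner in both replicates, and 51.4% had one among the strongest regions only. Windows of 250 bp up and 50 bp down, or 1000 bp up and 200 bp down, gave median summit positions of -117 and -230 bp. Within 25 bp of the summit the median GC content was 37.3%, the GATA share 9.98% and the CG share 14%. Within 100 bp the GATA share was 34.8% and the CG share 36.9%. Flanks at 200 to 300 bp had GATA words in 13.0%. RNA genes within 500 bp were found at 4.67% of members, and another reproducible peak within 500 or 2000 bp at 5.31% or 30.8%.

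Leaving out each replicate in turn, with the threshold of 200 on the other's own signal, gave 614 to 619 peaks at 609 to 613 genes, partners for 95.3 to 97.2%, median positions of -198 to -196 bp, GC of 37.6 to 38.6%, GATA words at 16.5 to 17.4%, CG words at 29.7 to 29.8% and RNA genes at 3.91 to 4.04%. A threshold at the same rank, chosen after seeing the data, gave 467 and 470 peaks, which held 69.6% and 68.4% of the members (72% and 70.9% with the threshold of 200), GATA words at 18.4% and 19.6% and CG words at 24.4% and 25.3%. The cause of these shifts was not tested. No paired analysis was possible because there is 1 group.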
